A study of Mus musculus with 2 samples.

Results

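The Wnt, Fgf, Bmp and Gdf genes of the mouse encode most of the secreted signals with which cells instruct their neighbours during development. They were taken here as the genes whose name on the array, before any colon, is Wnt, Fgf, Bmp or Gdf followed by a number and at most 1 letter, which leaves receptors out. This rule found 61 genes among 17851 gene names on 2 arrays, and 2207 of 474380 measured probes. The families counted 19 Wnt, 21 Fgf, 12 Bmp and 9 Gdf genes, of which 30 lay on array 1 and 31 on array 2. Each of the 61 had at least 1 measured window, and 61 carried a current symbol in a RefSeq gene table. The name rule also took in genes that encode no such signal. Bmp1 encodes a secreted protease, Bmp2k a protein kinase, and Fgf11, Fgf12, Fgf13 and Fgf14 encode proteins that stay inside the cell and bind sodium channels.

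Wnt proteins bind Frizzled receptors and stabilise beta-catenin or steer cell polarity. Secreted Fgf proteins signal through receptor tyrosine kinases, and a hormone-like group of them travels in the blood and needs Klotho proteins as coreceptors. Bmp and Gdf proteins belong to the TGF-beta superfamily and signal through receptor serine kinases to Smad proteins. In the gonads, Bmp4, Bmp8a and Bmp8b are known for the formation and upkeep of germ cells, Fgf9 for testis determination, Wnt4 for ovary determination, Fgf2 as a growth factor for spermatogonial stem cells, and Gdf9 and Bmp15 as products of the oocyte.

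Binding of CREM, which is related to CREB and switches on genes in developing spermatids, was measured by chromatin immunoprecipitation and promoter arrays. Germ cells of 5 testes from adult male C57BL/6 mice were fixed with formaldehyde, and their sheared chromatin was precipitated with the antibody sc-440 against CREM or, as negative control, with goat IgG. DNA of the CREM precipitate carried Cy5 and that of the IgG precipitate Cy3, on both arrays. Array 1 and array 2 tile different promoters, and neither was repeated or run with dyes exchanged, so there is no replicate, no test across samples and no p-value here. Dye and antibody cannot be told apart in any ratio. The DNA ratios carry no marker levels by which the purity of the germ cells could be checked.

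All ratios are log2 of CREM over IgG, centred on the median of the array, so that 1 is a 2-fold excess of CREM and -1 a 2-fold excess of IgG. A window is 3 adjacent probes, each starting no more than 500 bp after the one before, its value is their median, and it belongs to the gene of its middle probe. Genes whose highest window reached 1 were called on the CREM side. Those whose lowest window reached -1 were called on the IgG side, with windows built in the same way. Over all genes, the called windows had a mean GC content of 40.7% for CREM and 58.4% for IgG. The sides thus hold different sequence, and neither serves as a background for the other. In the probes used, 80.3% on array 1 and 82.0% on array 2 were well above background in the IgG channel, against 99.9% and 99.8% in the CREM channel. Over 17 control probes per array with at least 12 bright spots each, the SD of the ratio between spots had a median of 0.14 on array 1 and 0.12 on array 2. This spread covers spots of the same array and not the spread between precipitations, and the number of arrays limits the precision.

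The probes behind the extreme values of the families are printed first, 5′ to 3′ as the files give them, with positions on mm9. Capitals mark each CpG in the first 4 sets, since GC content went along with the ratio on these arrays, and the full cAMP response element, TGACGTCA, in the last set. The lowest window of Bmp4 lies at chr14:47005370-47005695, and its probes read, in order of position:
Bmp4 probe 1: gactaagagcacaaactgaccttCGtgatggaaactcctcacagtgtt
Bmp4 probe 2: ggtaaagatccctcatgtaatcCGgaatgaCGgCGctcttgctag
Bmp4 probe 3: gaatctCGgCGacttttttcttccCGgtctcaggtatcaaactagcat
The highest window of Wnt5b, at chr6:119494802-119495275, has few CpG:
Wnt5b probe 1: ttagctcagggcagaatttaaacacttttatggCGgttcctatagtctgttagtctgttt
Wnt5b probe 2: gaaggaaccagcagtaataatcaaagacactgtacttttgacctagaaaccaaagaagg
Wnt5b probe 3: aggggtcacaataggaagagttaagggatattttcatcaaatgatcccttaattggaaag
The lowest window of the same gene, at chr6:119493649-119494305, is dense in CpG and shows the contrast within a gene:
Wnt5b low probe 1: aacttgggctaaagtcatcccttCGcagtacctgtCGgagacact
Wnt5b low probe 2: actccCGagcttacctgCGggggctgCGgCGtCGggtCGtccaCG
Wnt5b low probe 3: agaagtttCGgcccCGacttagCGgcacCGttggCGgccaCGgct
The lowest window of Fgf13, at chrX:56387379-56387808, lies at a transcript start:
Fgf13 probe 1: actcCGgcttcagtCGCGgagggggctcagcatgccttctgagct
Fgf13 probe 2: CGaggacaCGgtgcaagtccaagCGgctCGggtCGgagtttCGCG
Fgf13 probe 3: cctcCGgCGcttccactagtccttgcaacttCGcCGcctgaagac
The full element occurred in 2 probes of the families, at chr1:74838186-74838230 and chr9:75621402-75621461, shown because the element is the sequence CREM recognises:
Wnt10a: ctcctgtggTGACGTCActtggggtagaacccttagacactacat
Bmp5: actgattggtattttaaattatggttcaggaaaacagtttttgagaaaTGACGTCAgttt

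Few of the ligand genes reached the CREM side and most reached the IgG side. On the CREM side 10 of 61 were called (16.4%), against 34.4% of all 17342 genes with a window. On the IgG side 40 of 61 were called (65.6%), against 33.6% of all genes. Windows past both thresholds were found at 6 members, Wnt5b, Wnt16, Fgf9, Fgf10, Bmp2k and Gdf6, and 17 members reached neither. The median highest window was 0.58 for the families and 0.77 for all genes, and the median lowest window was -1.22 and -0.76. No member reached a 4-fold ratio on the CREM side, where 5.37% of all genes did, and 8 members reached it on the IgG side, where 3.66% did. Nearest the thresholds, Fgf10 lay inside at 1.05 and Fgf18 outside at 0.98, and on the other side Wnt5a lay inside at -1.03 and Wnt10a outside at -0.94.

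**Figure D1:**
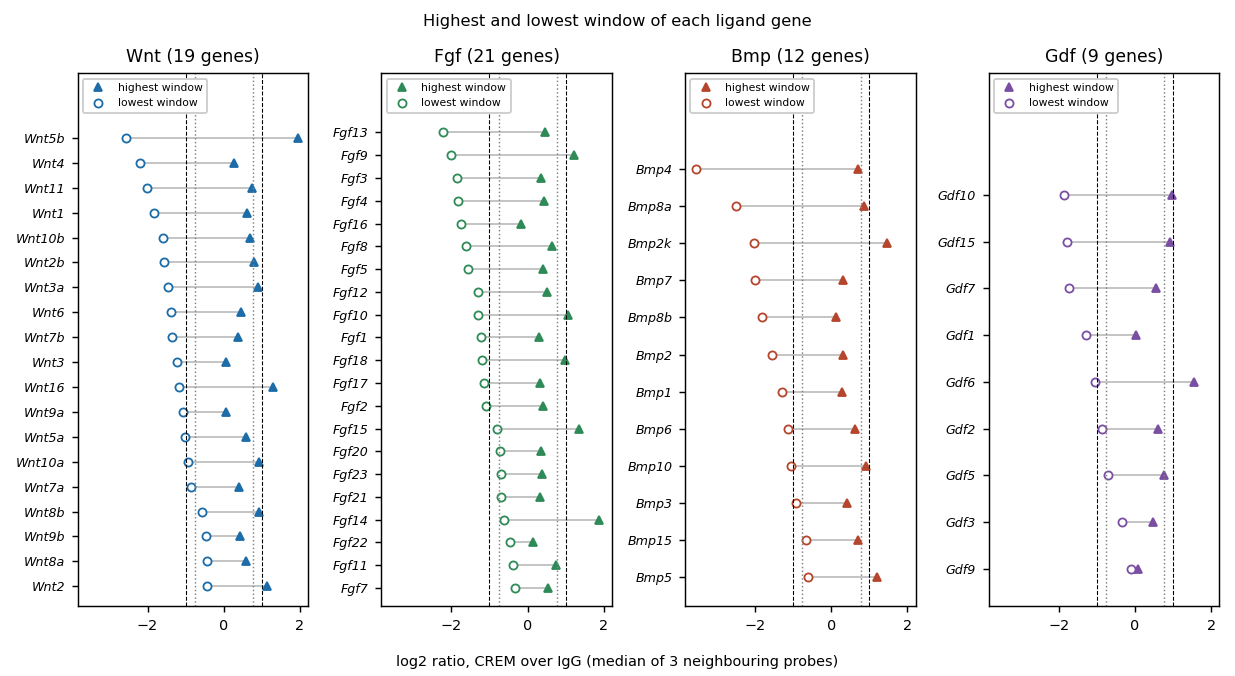
Highest (triangles) and lowest (open circles) window of each of the 61 genes by family, as log2 ratio of CREM over IgG, 1 array per gene without replicates; dashed lines mark 1 and -1 and dotted lines the medians of all genes, 0.77 and -0.76. Most circles lie beyond -1 while 10 triangles lie beyond 1, and the circle of Bmp4 stands alone at -3.56.

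The families had more windows per gene than all genes, with a median of 30 against 19, and more windows give more chances of an extreme value on either side. Counted by windows, 14 of 891 member windows on array 1 reached 1 (1.57%, against 5.66% of all windows of that array) and 77 reached -1 (8.64%, against 4.61%). On array 2 these were 9 of 920 (0.978%, against 6.32%) and 71 (7.72%, against 4.51%). Over both arrays, 5.99% of all windows reached 1 and 4.56% reached -1. Another setting took normexp background correction of the mean signals, centred but without dye normalization, so that both steps differed. There, 3 members were called on the CREM side, with 9 called on the IgG side, where 16.2% and 3.70% of all genes were. Members were called less often than all genes on the CREM side, and more often on the IgG side, in each of 14 other settings.

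The CREM-side windows were dim and the IgG-side windows bright in the IgG channel. At 2 of the 10 members called on the CREM side, Fgf9 and Fgf10, the 3 probes were well above background in the IgG channel (20%, against 28.5% of all genes called on that side), and at Wnt2 and Wnt16 none was. The median IgG signal of these 10 windows was 214, against 388 for all genes called on that side, where the median probe of the arrays had 788 and 779. Of the 40 windows on the IgG side, 37 had 3 bright probes (92.5%, against 86.2% of all genes called on that side). The median signal of the 40 was 1830 for IgG and 601 for CREM, against 1900 and 757 for all genes called there. At 17 of the 40 the CREM signal itself exceeded the array median (42.5%, against 48.4% of all genes called on that side).

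Among the Wnt genes, 3 of 19 were called on the CREM side (15.8%, against 34.4% of all genes), with 13 called on the IgG side (68.4%, against 33.6%). Wnt5b, which encodes a signal acting mainly without beta-catenin, had the highest window of the 61 genes at 1.94. Its 3 probes lay at -0.59, 2.38 and 1.94, with median signals of 65.6 for IgG and 346 for CREM. The pair of high probes thus rested on an IgG signal near the floor, and with windows of 5 probes or the other settings the value ranged from 0.44 to 1.96. Wnt16 reached 1.29 (probes 1.63, 0.54 and 1.29), and none of its 3 probes was well above background in the IgG channel. Wnt2, which is known for lung and placenta development, reached 1.13 (probes 0.26, 1.67 and 1.13) and was called in 4 windows, with a median of 0.26 over its 37 probes.

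On the IgG side, Wnt5b again stood first at -2.56 (probes -1.33, -2.56 and -2.58), with 10100 for IgG and 1720 for CREM. Both signals exceeded the array medians there. Wnt4, the ovary-determining signal, followed at -2.20 (probes -1.13, -2.20 and -2.99; chr4:136833243-136833677), with 8660 for IgG and 1920 for CREM, and had 8 of 24 windows at -1 or less. Its highest window reached 0.27. Wnt11, which guides cell movement and kidney branching, lay at -2.02 (probes -0.40, -2.02 and -2.45; chr7:105983274-105983596). Next came Wnt1 at -1.84, Wnt10b at -1.59, Wnt2b at -1.58, Wnt3a at -1.46, Wnt6 at -1.39 and Wnt7b at -1.35. Steps of 0.14 or less in this order are no larger than the median SD between control spots of array 1. That SD does not measure differences between genes or between arrays, and these genes lie on both arrays. Wnt3, Wnt16, Wnt9a and Wnt5a lay between -1.22 and -1.03. Not called on either side were Wnt10a, Wnt7a, Wnt8a, Wnt8b and Wnt9b.

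Among the Fgf genes, 4 of 21 were called on the CREM side (19.0%, against 34.4% of all genes), with 13 called on the IgG side (61.9%, against 33.6%). Fgf14, an intracellular regulator of sodium channels, had the highest value at 1.88 (probes 2.46, 0.30 and 1.88; chr14:125076177-125076579). It had 60 windows, of which 1 reached 1, and 1 of the 3 probes was well above background in the IgG channel. Fgf15, the gut hormone that restrains bile acid synthesis, reached 1.35 (probes -0.49, 1.58 and 1.35), and fell to 0.17 at the lowest among 12 other settings. Fgf9, the testis-determining signal, reached 1.21 (probes 0.45, 1.29 and 1.21; chr14:58693156-58693597) in 4 called windows, with 1190 for IgG and 2940 for CREM. It was the brightest of the called windows in both channels and ranged from 0.95 to 1.36 over the other settings. Fgf10, needed for limb and lung outgrowth, reached 1.05 (probes -0.37, 1.45 and 1.05), with 348 for IgG and 968 for CREM.

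On the IgG side, the calls are given by the group of Fgf proteins. Of 14 Fgf genes outside the hormone-like and intracellular groups, 11 were called there (78.6%, against 33.6% of all genes). Of the 4 intracellular genes 2 were called. None of the hormone-like Fgf15, Fgf21 and Fgf23 was, with lowest windows between -0.79 and -0.69. With the GC trend of each array removed, 5 of the 14 were called (35.7%, against 12.8% of all genes). The difference between these groups was not tested. Fgf13, intracellular and X-linked, lay lowest at -2.22 (probes -2.05, -2.22 and -2.50; chrX:56387379-56387808), with 2060 for IgG and 370 for CREM. It had 7 of 37 windows at -1 or less. Fgf9 also stood on this side, at -2.02 (probes -0.96, -2.79 and -2.02; chr14:58690888-58691180). Fgf3 lay at -1.86 and Fgf4 at -1.82, neighbours on chromosome 7. They differed by less than the median SD between control spots of their array. Fgf8, a signal of embryonic organisers, lay at -1.62. Fgf2, the stem cell growth factor, lay at -1.08 and reached 0.41 in its highest window. Fgf7, Fgf11, Fgf20, Fgf21, Fgf22 and Fgf23 reached neither threshold.

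Among the Bmp genes, 2 of 12 were called on the CREM side, with 9 called on the IgG side. The kinase gene Bmp2k had the highest value at 1.46, and its probes lay close together at 1.46, 1.80 and 1.30 (chr5:97425852-97426238), with 398 for IgG and 1110 for CREM. Bmp5, a signal of cartilage formation, reached 1.21 (probes -0.03, 1.5 and 1.21). With probes well above background in both channels, its highest window was -0.04. Bmp10, the heart signal, reached 0.91, and Bmp8a 0.86. Bmp7, active in kidney and eye, and Bmp2, active in heart and bone, both reached 0.30, Bmp8b reached 0.12 and the oocyte gene Bmp15 reached 0.70.

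Bmp4 had the lowest window of the families at -3.56, with probes at -3.47, -3.72 and -3.56, printed above. Only 1 of all 17342 genes had a lower window. The IgG signal was 1730, 5640 and 4690 at the 3 probes, and the CREM signal 158, 434 and 403. The change was abrupt on both sides: the next probe at lower coordinates lay at -0.36 (393 for IgG and 311 for CREM) and the next at higher coordinates at 0.36 (3000 for IgG and 3920 for CREM). The GC content of the 3 probes was 45.8%, 51.1% and 45.8%, against 45.8% and 38.3% in these neighbours, and the window was at -3.51 with the GC trend of the array removed. It ranged from -3.58 to -2.10 over 12 other settings. The window lies about 4812 bp downstream of the matched transcript start of Bmp4. The RefSeq table also lists a Bmp4 pseudogene on chromosome X, and whether its DNA adds to these probes was not tested.

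Bmp8a and Bmp8b, near-identical neighbours on chromosome 4, lay at -2.49 (probes -1.98, -2.49 and -2.83; chr4:123019781-123020164) and -1.82 (probes -1.82, -1.18 and -2.54; chr4:122782258-122782589). Because the genes are so alike, a signal at one may include DNA of the other, which was not tested. Bmp2k lay at -2.03 (probes -1.61, -2.03 and -2.91), 120 bp downstream of its matched start, while its CREM-side window lay 663 bp upstream of it. Bmp7 lay at -1.99 (probes -1.99, -1.27 and -2.34) and Bmp2 at -1.55 with 7 windows at -1 or less. Bmp3, with -0.93, and Bmp15, with -0.67, reached neither threshold.

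Among the Gdf genes, 1 of 9 was called on the CREM side (11.1%, against 34.4% of all genes), with 5 called on the IgG side (55.6%, against 33.6%). Gdf6, which shapes joints and the skull, reached 1.55 (probes 0.56, 1.55 and 1.95; chr4:9768565-9768942), with 174 for IgG and 562 for CREM and 1 of 3 probes well above background in the IgG channel. Gdf10 at 0.97 and Gdf15, a stress-induced hormone, at 0.93 lay just below the threshold. On the IgG side Gdf10 lay at -1.87 (probes -1.57, -2.27 and -1.87), Gdf15 at -1.78 with 8 windows at -1 or less, and Gdf7 at -1.72. The oocyte gene Gdf9 stayed near 0 throughout its 11 windows, which lay between -0.11 and 0.08. Gdf2, Gdf3 and Gdf5 also reached neither threshold.

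GC content moved with the ratio in these genes as it did over the arrays. Across windows, Pearson's r between value and GC was -0.638 on array 1 (891 member windows, Spearman's rho -0.489) and -0.491 on array 2 (920 windows, rho -0.353), against -0.442 and -0.397 over all windows. These are descriptions across overlapping windows of 1 hybridisation each, which are not independent. Among member windows of 60% GC or more, 78 of 109 reached -1 (71.6%, against 64.2% of all such windows). Below 40% GC, 4 of 471 did (0.849%, against 0.563%), and 14 reached 1 (2.97%, against 7.21%).

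**Figure D2:**
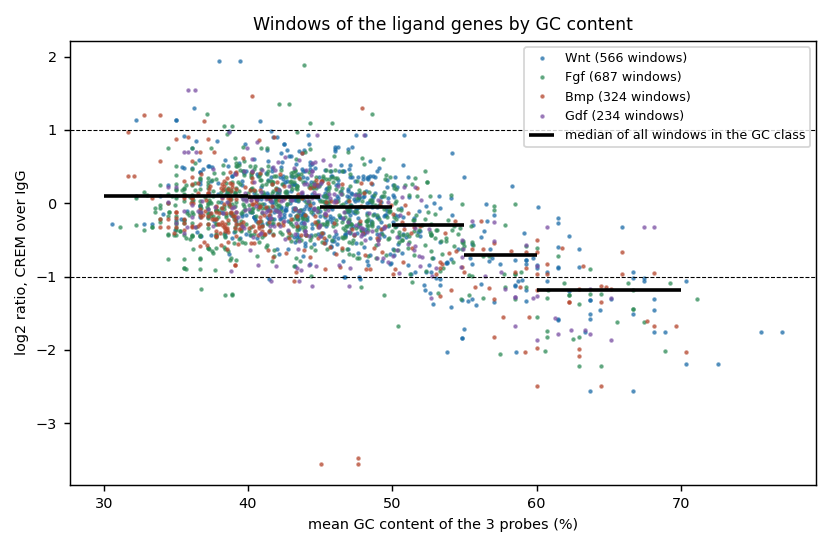
Log2 ratio of CREM over IgG of each ligand gene window (points, coloured by family) by the mean GC content of its probes in percent; black bars are the medians of all windows in the GC class. Member windows of 60% GC or more had a median of -1.30, against -1.19 for all windows of that content.

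The members were richer in GC than other genes, with a median of 45% against 42.9%. Within 45 to 50% GC, 17 of 21 members were called on the IgG side (81.0%, against 49.7% of all genes of that content) and 0 of 21 on the CREM side (against 30.4%). Within 40 to 45% GC, 14 of 26 were called on the IgG side (53.8%, against 32.5%) and 9 of 26 on the CREM side (34.6%, against 39.4%), so that this class held 9 of the 10 members called there. With the GC trend of each array removed, 20 members remained called on the IgG side (32.8%, against 12.8% of all genes), and these 20 were among the 40. By family they were 7 Wnt, 6 Fgf, 4 Bmp and 3 Gdf genes. On the CREM side 11 were called then (18%, against 30.7%). The lowest window of Bmp4 was then at -3.51, that of Bmp8a at -1.58 in place of -2.49, that of Wnt5b at -1.06 in place of -2.56, and that of Wnt4 at -1.01 in place of -2.20. Other members named above were no longer called. Among them, Bmp7 lay at -0.70 in place of -1.99 and Bmp2 at -0.55 in place of -1.55. Fgf3 lay at -0.89, Fgf4 at -0.91, Fgf8 at -0.59 and Gdf15 at -0.92. Whether GC content sets the remaining difference was not tested.

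Low ratios were frequent at transcript starts. Starts were placed by exact match of probes to RefSeq promoter windows of 300 bases (250 before to 50 after the start, GRCm38.p6 sequence, positions kept on mm9). Of the 61 members, 43 had a promoter sequence and 36 a probe inside one. The median over these 36 genes was -0.98, with a range of -2.77 to 0.34, against -0.29 over 8958 genes. None reached 1 (against 9.34%) and 18 reached -1 (50%, against 21.0%). These probes were richer in GC, at a mean of 57.7% against 50.3%, and with the GC trend removed the medians were -0.29 and -0.03, with 9 members (25%) and 6.80% of all genes at -1 or less.

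Single starts show the range. The start of Fgf18, a signal of bone and lung growth, was at -2.77, that of Wnt2b at -2.66, and that of Gdf10 at -2.27. The start of Fgf13, whose probes are printed above, was read by a pair of probes at -2.22 and -2.50. Fgf12 had a probe at -2.36 with 44.7% GC and another at 0.03. Above 0 were Wnt8b, with probes at 0.26 and 0.41, Fgf23 at 0.22 and 0.42, Fgf11 at 0.09 and Wnt16 at -0.22 and 0.36.

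The lowest window lay within 500 bp of a matched start in 23 of 36 members, at a median of 293 bp. The highest window lay that near in 0 of 36 and within 1000 bp in 5, at a median of 1765 bp. These window distances were not computed for all genes, and they run only to matched starts. At Wnt5b, Fgf12 and Fgf14, windows in another tiled stretch without a matched start were thus placed up to 484610 bp away. In the distances that follow, all genes are the 8958 with a matched start. From 300 bp before to 300 bp after the starts, 119 member probes had a median of -0.88, against -0.32 for all genes, and 45.4% reached -1, against 23.9%. Between 800 and 300 bp upstream, where 20% of the probes of all genes reached 1, 3.09% of 97 member probes did, and the medians were -0.06 in the members and 0.22 in all genes. The mean GC content there was 47.5% and 42%, and with the GC trend removed the medians were 0.10 and 0.21.

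**Figure D3:**
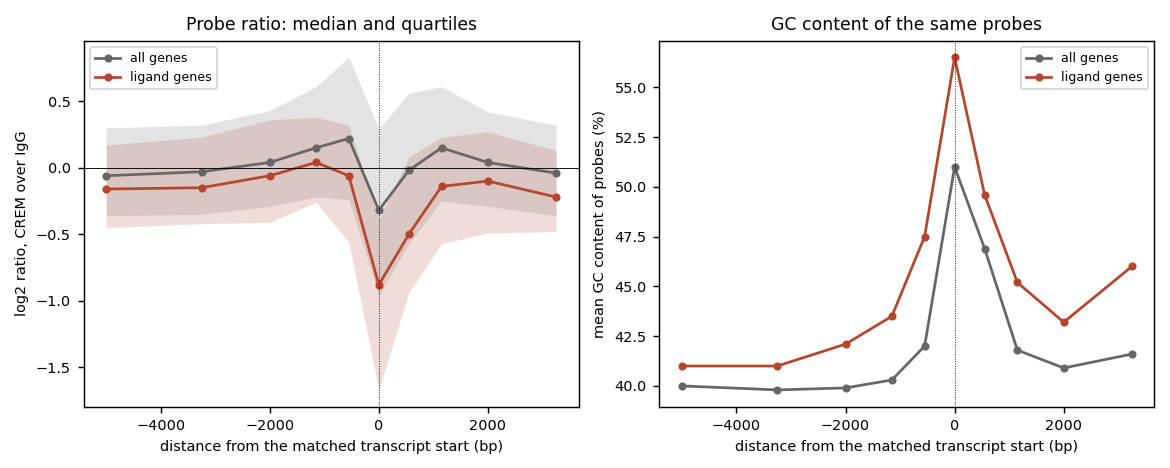
Median log2 ratio of CREM over IgG of probes by distance from the matched transcript start in bp, for the ligand genes and for all genes, with quartiles shaded, and the mean GC content of the same probes in percent beside it. Both sets hold only genes with a matched start. Both lines dip at the start, to -0.88 in the ligand genes and -0.32 over all genes, and the rise to 0.22 upstream of the start over all genes is at -0.06 in the ligand genes, or 0.21 and 0.10 with the GC trend removed, which is not plotted.

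**Figure D4:**
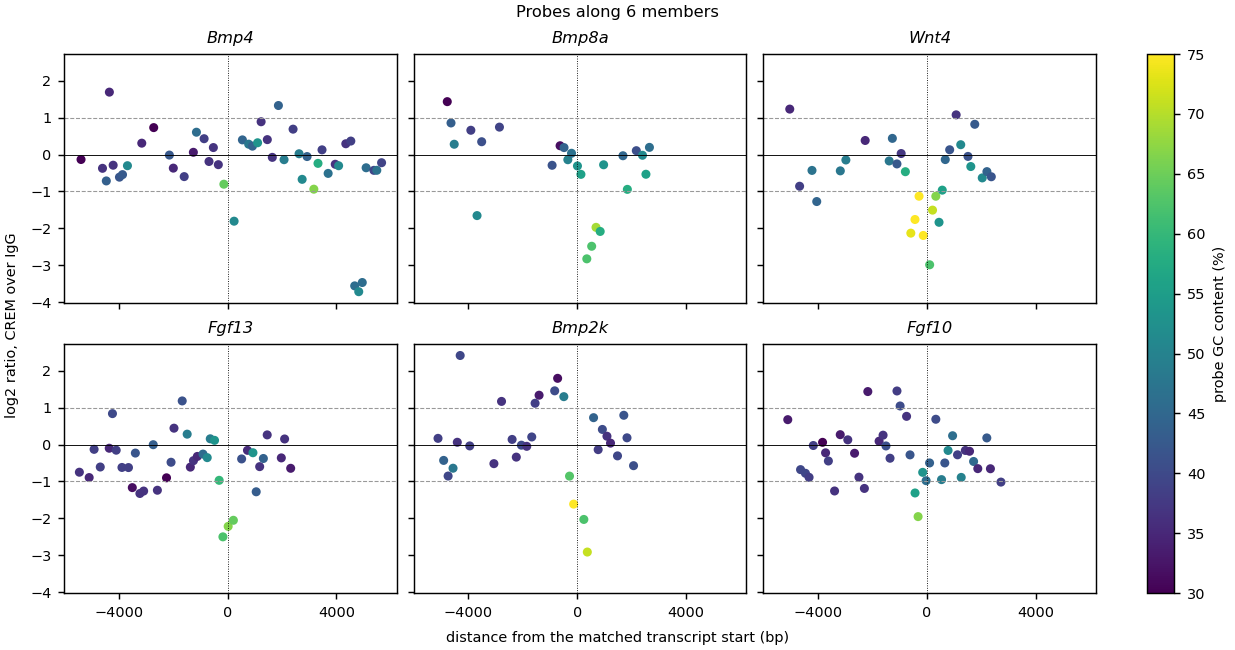
Probe log2 ratios of CREM over IgG along 6 members, Bmp4, Bmp8a, Wnt4, Fgf13, Bmp2k and Fgf10, by distance from the matched transcript start in bp, coloured by probe GC content in percent. The 3 probes of Bmp4 near -3.56 stand apart from neighbours at -0.36 and 0.36.

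The cAMP response element was counted in the probes and promoters of these genes. The full element TGACGTCA, searched on both strands, was in 2 of 2126 member probes used (0.0941%) and in 259 of 454681 probes over all genes (0.0570%). The Wnt10a probe lay at -0.82, with 322 for IgG and 185 for CREM, and the Bmp5 probe at -0.16, with 556 and 502. Of all probes with the element, 16.6% reached 1 and 22.0% reached -1. The same shares over all probes are not given here, so these do not show whether either side is raised. No promoter sequence of the 43 members held the full element, against 1.79% of 32851 promoter sequences.

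Its core TGACG, searched on both strands and read as CGTCA on the reverse, which the full element contains, was in 46 member probes (2.16%, against 2.08% of all probes). Their median was -0.41, against -0.07 for all probes with the core. Of the 46, 2 reached 1 (all core probes 11.6%), in Bmp5 at 1.86 and Gdf15 at 1.11, both not well above background in the IgG channel. At -1 or less were 10, the lowest the second Bmp4 probe printed above at -3.72 (all core probes 15.6%). The core was in 0 of the 10 CREM-side windows, against 10.6% of 5970 over all genes, and in 6 of the 40 IgG-side windows, against 14.7% of 5832. The 6 were those of Bmp4, Bmp6, Fgf16, Gdf15, Wnt10b and Wnt11. In promoters the core was in 9 of 54 sequences, of 8 of the 43 genes, against 20.8% of all promoter sequences.

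Receptors, antagonists and mediators of the same pathways were counted over a list of 107 measured genes. On the CREM side 30 were called (28.0%, against 34.4% of all genes) and on the IgG side 71 (66.4%, against 33.6%). The median highest and lowest windows were 0.73 and -1.29. With the GC trend removed the pathway genes had 21.5% and 18.7%, where the ligand genes had 18% and 32.8% and all genes 30.7% and 12.8%. Of 16 Wnt receptors, 4 were called on the CREM side, with 12 called on the IgG side, and of 13 Wnt antagonists 3 and 6. Of 17 Wnt mediators and targets these were 5 and 13. Of 15 Fgf mediators and targets 6 reached the CREM side and 10 the IgG side. Of 7 Fgf receptors these were 2 and 4, and of 10 Bmp and Gdf receptors 1 and 4. Of 13 Bmp antagonists 1 reached the CREM side, Grem1 at 1.18, and 10 the IgG side. With the GC trend removed, 2 of the 16 Wnt receptors were called on the IgG side (12.5%). Over the pathway sets this share then ran from 10.0% in Bmp and Gdf receptors to 42.9% in Fgf receptors.

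The mediators and targets of Bmp signals had 8 of 16 on the CREM side, with 12 called on the IgG side. Of all genes, 34.4% and 33.6% were called there. Id3 reached 2.23, Id1 1.92, Id4 1.54 and Id2 1.35, genes for inhibitors of basic helix-loop-helix factors. In the same list, Msx1 reached only 0.38 and Msx2 0.26, with lowest windows of -1.12 and -1.85. Of the signal transducers, Smad2 had a highest window of 1.64 and a lowest of -2.12, Smad1 1.33 and -1.46, Smad5 1.12 and -1.96, and Smad4 1.01 and -0.88. Smad7, an inhibitor of the pathway, had 0.06 and -2.05, and Axin2, a feedback inhibitor of Wnt signals, 0.32 and -2.25.

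For comparison, 33 Hox genes, another developmental family, had 7 calls on the CREM side (21.2%), with 21 called on the IgG side (63.6%), at a median GC of 44.1%. Of 65 interleukin and chemokine ligand genes, also secreted signals, 15 were called on the CREM side (23.1%), with 8 called on the IgG side (12.3%), at 40.2% GC. After removal of the GC trend, the IgG-side share was 33.3% for Hox genes and 32.8% for the Wnt, Fgf, Bmp and Gdf genes. For the interleukin and chemokine ligand genes it was 12.3%. The CREM-side shares were then 12.1%, 18% and 16.9%, in the same order. No difference between these lists was tested.

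**Figure D5:**
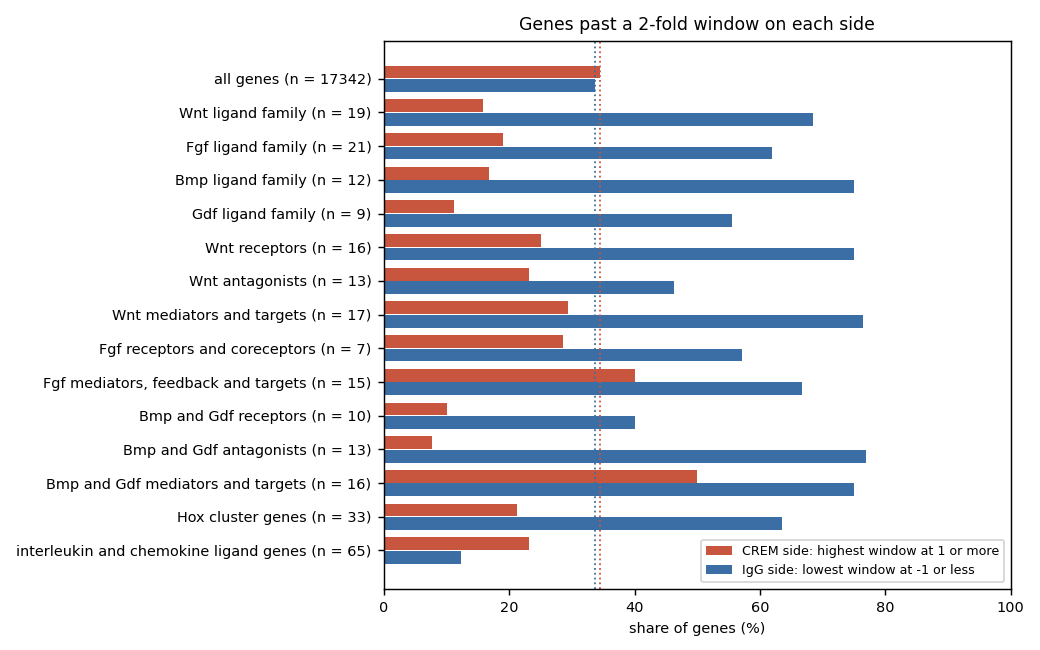
Percent of genes called on either side (red, CREM; blue, IgG) in the 4 ligand families, the sets of pathway genes, the compared lists and all genes, whose shares are the dotted lines. The blue bars exceed the red in each ligand family, and the IgG side holds 63.6% of the Hox genes and 12.3% of the interleukin and chemokine ligands, against 33.6% of all genes.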

How the data were processed

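The scanner files were written by Agilent Feature Extraction 10.7.1.1, per the file headers, with positions on mm9. Processed red and green signals are intensity values that, per the file headers, were background-subtracted and dye-normalized, and their deposited ratio is a log10 value. The deposited value table holds log2 ratios. Recomputing it by median background subtraction and loess gave a correlation of 1 with it on both arrays. R 2.10.1 and limma are named in the submitters' processing notes. Tiling features without a position (299 and 417 on arrays 1 and 2), outlier spots (46 and 9) and probes dim in both channels (8573 and 10355) were left out, leaving 228277 and 226404. The log2 ratio was centred on the array median, a shift of 0.02, with no loess. Calculations used Python 3.11.15, and R 4.3.3 with limma 3.58.1 for the alternatives. The window code was tested on shuffled ratios with regions raised or lowered by a large shift, which gives no rate of false calls. Without an mm9 annotation, no window is assigned to an exon or intron.

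The members and gene lists were chosen with earlier results of these data known. Named members were, by rule, the 3 highest and 3 lowest of each family, members past a 4-fold ratio, and those with a textbook role in germ cells. Others that complete a count or an order were named after their values were seen. Alternatives covered the background correction, loess, centring, the dim-probe filter, window size and spacing, GC content and the threshold.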

Additional observations from a re-analysis of the deposited data

How the results depend on the processing

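Against 10 and 40 members called on the CREM and IgG sides and medians of 0.58 and -1.22 for the highest and lowest windows, other settings gave these values. The share of all genes called, 34.4% and 33.6% in the main setting, is given beside each count. With normexp background correction of the mean signals, without dye normalization, there were 3 and 9 calls (all genes 16.2% and 3.70%). The median lowest window was -0.58. The deposited table gave 1 CREM-side call (all genes 17.3%) and medians of 0.42 and -0.95. Probes well above background in both channels gave 5 CREM-side calls (all genes 20.8%) and a median highest window of 0.44. The highest window of Bmp5 was then -0.04 in place of 1.21. Windows of 5 probes gave 2 CREM-side calls (all genes 19.8%) and medians of 0.38 and -0.94. With the GC trend removed there were 20 IgG-side calls (all genes 12.8%) and a median lowest window of -0.87. A threshold of 0.6 gave 28 CREM-side calls (all genes 62.9%). A threshold of 2 gave 0 and 8 (all genes 5.37% and 3.66%). The causes of these shifts were not tested. The CREM-side count stayed within 1.5 times under 9 of 15 alternatives and the IgG-side count under 12 of 15. Of 28 named genes, none of 9 called on the CREM side was called there in all 12 alternatives with values per gene, and 6 of 22 on the IgG side were, namely Bmp2k, Bmp4, Bmp8a, Fgf13, Fgf9 and Wnt4. On the CREM side, 2 of the 10 windows had 3 probes well above background in the IgG channel (20%, against 28.5% of all genes called there). No paired analysis was possible because each array tiles other promoters and was hybridised 1 time.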
